A study of Mus musculus with 12 samples.

Results

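Bulk RNA-seq libraries of OT-I CD8 T cells sorted from melanomas 14 days after transfer were compared with libraries sorted 4 days after transfer. The comparison took in 6 of the 12 libraries of the study, 3 at day 14 and 3 at day 4, chosen by their labels, and all genes of the deposited count tables. The OT-I transgene encodes a receptor by which CD8 T cells recognise an ovalbumin peptide on MHC class I. In both groups C57Bl6/J mice bore B78ChOVA tumours, a B16-derived mouse melanoma line that carries mCherry and ovalbumin, and OT-I cells were given by adoptive transfer. The cells were sorted from the tumours as CD44+ into lysis buffer. The labels list no drug or other treatment and no ages of the mice. The other libraries were 3 of effector OT-I cells cultured with antigen for 5 days, and 3 of naive OT-I cells. The naive cells came from lymph nodes of mice without tumours. Both sets entered the filter on low counts, the scaling and the estimate of the spread, but not the contrast. The labels do not say whether the 3 libraries of a group came from separate mice, so the p-values measure the spread between these samples, which may be technical.

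CD8 T cells that meet their antigen for a long time, in a tumour or a chronic infection, enter the state called exhaustion. Early cells still hold naive and stem-like genes such as Tcf7, which encodes the transcription factor TCF-1. Later, terminally exhausted cells carry several inhibitory receptors at the same time, express the transcription factor TOX, and are known to lose much of their capacity to divide and to make cytokines on renewed stimulation. Such cells are also a source of chemokines and growth factors that act on macrophages.

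The 6 tumour libraries held 13603863 to 17094006 counts in genes. All 10 CD8 T cell markers had counts in every tumour library. Their summed level was 4301, 4467 and 4440.3 CPM (counts scaled to the library's size) at day 14, against 3263, 3505 and 3809 CPM at day 4 (exact two-sided permutation test, p = 0.1, the smallest possible). The groups did not overlap, and 5 of these 10 markers of the sorted cells were called higher (beside 7.17% of all genes) and none lower. Melanoma transcripts were present at both times. The 10 markers summed to 2049, 867 and 511 CPM at day 14 and to 1314, 1191 and 877 CPM at day 4 (exact permutation p = 1). They reached at most 44.1 CPM in an effector and 34.2 CPM in a naive library. The macrophage and monocyte markers summed to 201, 145 and 170.3 CPM at day 14 and to 148, 143 and 238 CPM at day 4 (exact permutation p = 0.9). No melanoma or macrophage marker tested was called (0 at an unadjusted p under 0.05 by edgeR, and DESeq2 called 0). Levels of Cd4 averaged 3.60 CPM at day 14 and 2.69 CPM at day 4, and those of Foxp3 averaged 3.71 CPM at day 14 and 2.01 CPM at day 4. Fibroblast markers summed to 272, 151 and 77.7 CPM at day 14 and to 114, 239 and 188 CPM at day 4 (exact permutation p = 0.8). Day 4 replicate 2 stood apart from the other day 4 libraries. It had counts in 25446 genes against 21862 to 22123 in the other tumour libraries. The collagen gene Col3a1 measured 1.32, 7.94 and 2.72 CPM at day 14 and 0.293, 10.63 and 0.401 CPM at day 4, where replicate 2 is the high one. Without it the fibroblast collagen genes Col1a2 (log2 3.60, adjusted p = 0.0374) and Col3a1 (3.48, 0.0214) were called higher at day 14, while with it none of the fibroblast markers was called. Its part in the results is given by leaving it out.

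Day 14 cells differed from day 4 cells in 1984 of the 16426 genes tested (12.1%), of which 1178 were higher (7.17%) and 806 were lower (4.91%) at day 14. A gene is called here when the Benjamini-Hochberg adjusted p of edgeR's quasi-likelihood test, over all genes tested, is under 0.05. The median log2 fold change of all genes was -0.00, with 8111 positive and 8298 negative values. An unadjusted p under 0.05 was found in 4005 of the 16426 genes. Groups did not overlap in 2707 genes higher at day 14 (16.5%) and in 2308 lower (14.1%). The first principal component of the 6 libraries took 42.9% of the variance and separated the groups, and the correlation of log2 CPM between libraries was 0.970 to 0.978 within groups and 0.954 to 0.965 between groups. The number of calls was 1283 without day 14 replicate 2, 1332 without day 4 replicate 1 and 1347 without day 4 replicate 2.

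Differences were ranked among abundant protein-coding genes (4 or more as the mean of log2 CPM) that were called and whose groups did not overlap. The largest rises were in a chemokine, a transcriptional repressor, receptors and granule genes. Havcr2, described below, was not called and so was not ranked. Ccl5 (ENSMUSG00000035042.2; GRCm38 chromosome 11, 83525778 to 83530518, minus strand), a chemokine that draws T cells and monocytes, measured 538, 568 and 339.8 CPM at day 14 and 24.7, 26.1 and 43.1 CPM at day 4. Its level was thus above all day 4 libraries in every day 14 library, a 15.4-fold difference (log2 3.94 ± 0.61 SE, adjusted p = 0.00388). Prdm1 (ENSMUSG00000038151.13; chromosome 10, 44437177 to 44528501, minus strand) encodes BLIMP-1, a repressor that drives terminal differentiation, and measured 213, 211 and 195 CPM at day 14 against 7.85, 14.1 and 37.9 CPM at day 4. The day 14 libraries lay close together while the day 4 libraries spread almost as widely as their mean of 19.9 ± 15.9 CPM (SD, n = 3). The rise was 10.3-fold (log2 3.37 ± 0.59 SE, adjusted p = 0.00688), and its log2 value was 4.21 without day 4 replicate 3. With the melanoma marker level as a covariate Prdm1 was not called (adjusted p = 0.0779). Also among the 10 largest rises were the chemokine receptor Cxcr6 (8.09-fold) and the receptor gene Lilr4b (8.04-fold). The inhibitory receptors Cd244a (7.11-fold) and Lilrb4a (6.99-fold) were among them too. So were the adaptor Grb7 (7.07-fold), the granule protease Gzmk (6.61-fold) and the metalloprotease Adam8 (6.29-fold). Lilr4b and Lilrb4a are neighbouring genes of near-identical sequence, so that reads may be split between them, and Lilr4b was not called without day 4 replicate 1 (adjusted p = 0.0589) or replicate 2 (0.0578).

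**Figure D1:**
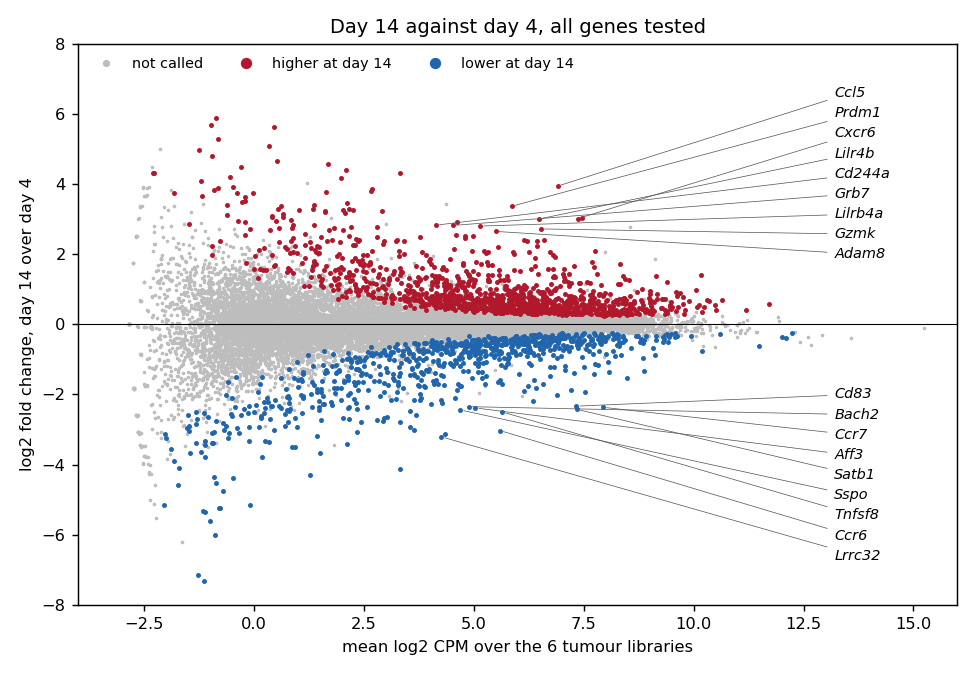
Log2 fold change of day 14 over day 4 (y axis) against mean log2 CPM over the 6 tumour libraries (x axis), 1 point a gene for the 16426 genes tested; red points were called higher and blue points lower at day 14, grey points were not called. Names are given for genes among the 10 highest and 10 lowest called protein-coding genes that have a mean log2 CPM from 4 upward and no overlap of the groups. They run from Ccl5 at 3.94 to Lrrc32 at -3.21.

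By the same ranking, the largest falls included several genes with little RNA in the effector and naive libraries. Lrrc32 (ENSMUSG00000090958.2; chromosome 7, 98489283 to 98502181, plus strand) encodes GARP, which holds latent TGF-beta at the cell surface, and measured 6.54, 5.94 and 6.18 CPM at day 14 against 54.9, 60.0 and 57.5 CPM at day 4. Neither group varied by more than a few CPM, and the level was 9.23-fold lower at day 14 (log2 -3.21 ± 0.29 SE, adjusted p = 6.79e-06). Ccr6, the receptor for CCL20, measured 15.1, 9.58 and 28.4 CPM at day 14 and 132, 158 and 143 CPM at day 4, a level 8.17-fold lower at day 14. The mean of Lrrc32 was 0.378 CPM in effector cells and 0.0510 CPM in naive cells, and that of Ccr6 was 0.742 CPM in effector cells and 0.532 CPM in naive cells. Sspo (SCO-spondin, a secreted glycoprotein known from the brain) fell 5.43-fold and Tnfsf8, which encodes the CD30 ligand, fell 5.65-fold. The activation marker Cd83 was 5.04-fold lower and the nuclear factor Aff3 was 5.22-fold lower at day 14. Aff3 was not called with the melanoma (adjusted p = 0.0628) or the macrophage marker level (0.0696) as a covariate. Ccr7, Satb1 and Bach2, also among the 10 largest falls, belong to the naive and stem-like genes described next. Since these are bulk libraries, fewer cells of a type and less RNA per cell cannot be told apart for any of these genes.

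**Figure D2:**
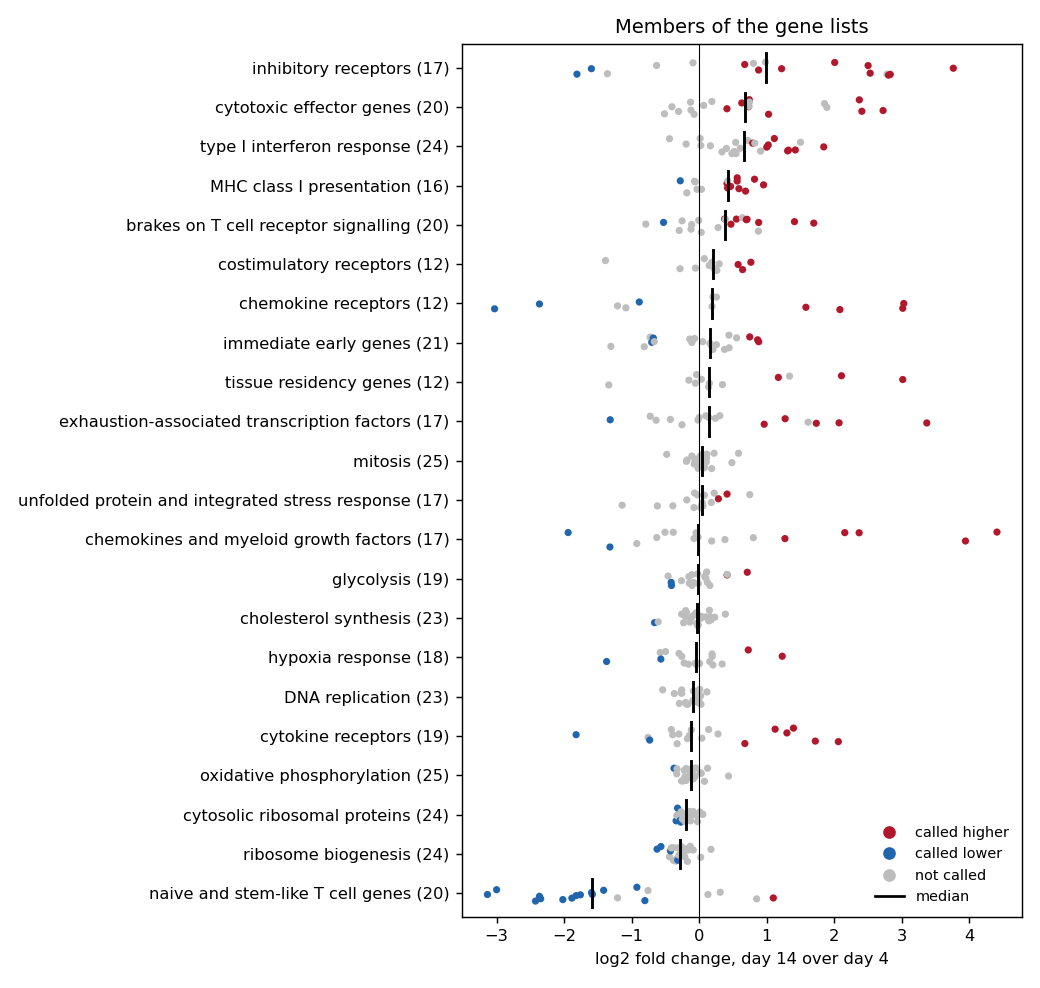
Log2 fold change of day 14 over day 4 (x axis) of every tested member of the 22 gene lists (y axis, number tested in parentheses), with members called higher in red, lower in blue and not called in grey, and the median of each list as a black bar. The medians run from 0.98 for inhibitory receptors to -1.59 for naive and stem-like T cell genes, and points are spread vertically only to keep them apart.

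Naive and stem-like T cell genes fell as a group: 14 of the 20 listed genes were lower at day 14, beside 4.91% of all genes, and 1 was higher; their median log2 fold change was -1.59, beside -0.00 for all genes. Ccr7, the chemokine receptor that guides T cells into lymph nodes, measured 134, 69.6 and 128 CPM at day 14 and 668, 552 and 488 CPM at day 4 (log2 -2.37 ± 0.24 SE, adjusted p = 0.000128). Every day 14 library was below every day 4 library for this gene. Tcf7 (chromosome 11, 52252371 to 52283014, minus strand) measured 46.0, 36.6 and 104 CPM at day 14 and 243, 259 and 254 CPM at day 4, a level 4.05-fold lower at day 14 (log2 -2.02 ± 0.33 SE, adjusted p = 0.00417). Day 14 replicate 3 held more Tcf7 RNA than the other day 14 libraries combined, and without it the log2 fold change was -2.63. Tcf7 was not called with the macrophage marker level as a covariate (adjusted p = 0.101).

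Transcription factors of quiescent and stem-like cells moved with these genes. Bach2, a repressor that holds back effector genes, measured 17.5, 7.88 and 14.7 CPM at day 14 and 74.1, 63.4 and 65.7 CPM at day 4 (5.09-fold lower, adjusted p = 3.58e-05). Satb1, an organiser of chromatin in T cells, was 5.36-fold lower, Myb was 3.69-fold lower and Bcl6 was 3.38-fold lower at day 14. Foxp1, a quiescence factor, varied least among libraries, with 49.3, 40.04 and 54.2 CPM at day 14 and 144, 147 and 142 CPM at day 4 (3.02-fold lower, adjusted p = 1.13e-07). Dapl1, a gene of naive and memory-like T cells, measured 3.04, 2.53 and 8.42 CPM at day 14 and 31.4, 39.3 and 41.4 CPM at day 4, and its log2 fold change was -3.76 without day 14 replicate 3. Slamf6, a surface receptor used to mark progenitor exhausted cells, measured 112, 104 and 181 CPM at day 14 and 298, 402 and 357 CPM at day 4 (2.66-fold lower, adjusted p = 0.00209). Day 14 replicate 3 was the highest day 14 library for Tcf7, Slamf6 and Dapl1 alike, yet remained below all day 4 libraries for each.

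Not every gene of this kind was lower. Il7r, the receptor for the survival cytokine IL-7, measured 52.2, 22.9 and 69.9 CPM at day 14 and 57.8, 82.4 and 104 CPM at day 4, with overlapping groups (adjusted p = 0.292). Foxo1 and Bcl2 had log2 fold changes of 0.13 and 0.31 and were not called. Klf2, which drives exit from tissue, was the member called higher, at 3.57, 3.23 and 3.45 CPM at day 14 against 2.71, 1.14 and 1.002 CPM at day 4. It was not called in a fit of the tumour libraries by themselves, named the tumour-only fit from here on (adjusted p = 0.122). Nor was it called without day 4 replicate 2 (0.128) or 3 (0.108) or without day 14 replicate 1 (0.0715), 2 (0.0627) or 3 (0.0630). Lef1, the partner of TCF-1, was 1.75-fold lower at day 14 (adjusted p = 0.0266), a call lost without day 4 replicate 2 (0.0845) or 3 (0.0944) or day 14 replicate 1 (0.0884) or 2 (0.102). The count of members called lower was 12 to 15 when each library was left out.

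**Figure D3:**
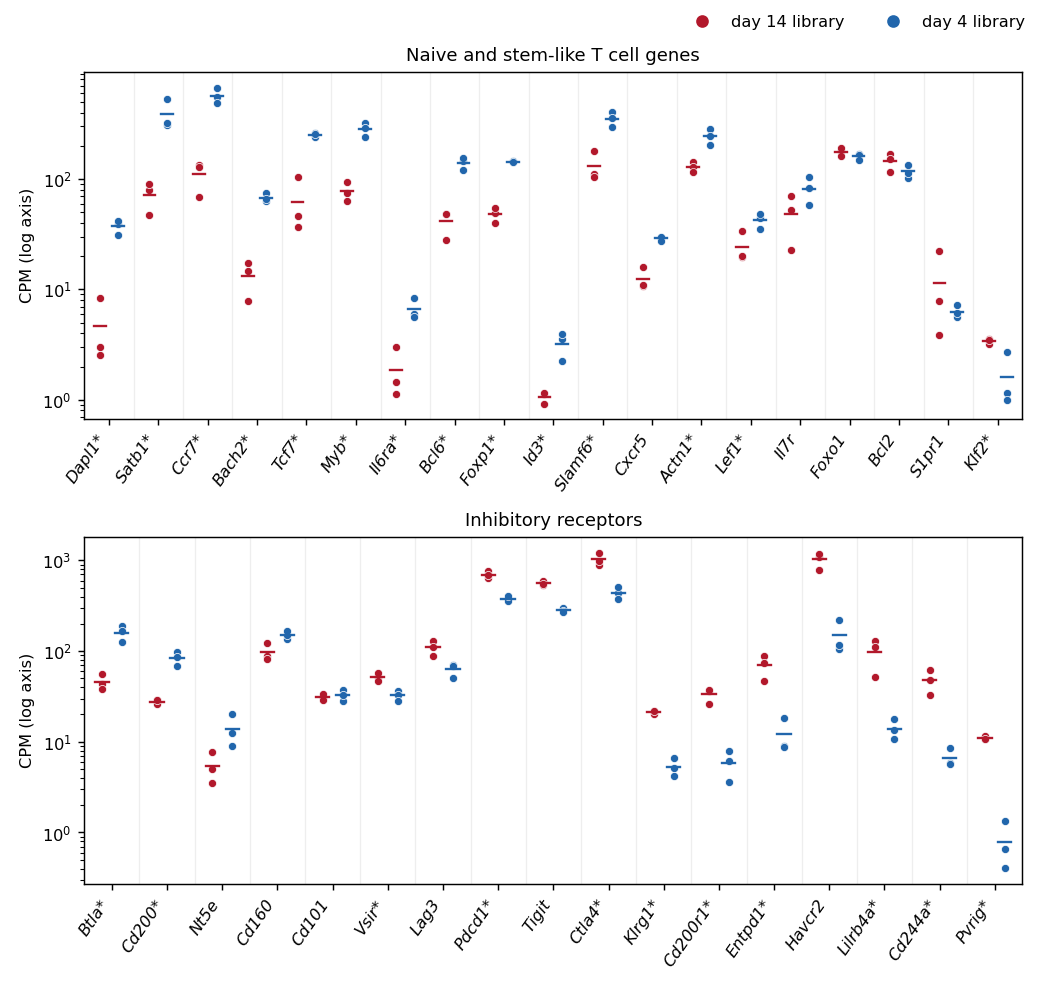
CPM on a log axis of members of the naive and stem-like T cell genes (top) and inhibitory receptors (bottom), ordered by fold change; red points are the 3 day 14 libraries and blue points the 3 day 4 libraries of each gene, short lines are group means, and an asterisk marks called genes. Dapl1, Satb1 and Ccr7 lie well below day 4, and Pvrig, Cd244a and Lilrb4a well above it.

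Of the 17 genes listed as inhibitory receptors, 9 were higher at day 14 (beside 7.17% of all genes) and 2 were lower (beside 4.91%). The median log2 fold change was 0.98. Pdcd1 and Ctla4 were already abundant at day 4. Pdcd1, which encodes PD-1, measured 646, 756 and 688 CPM at day 14 and 373, 353 and 409 CPM at day 4 (1.84-fold, log2 0.88 ± 0.21 SE, adjusted p = 0.0187). Its groups were apart in every library, but the call was lost without day 4 replicate 1 (adjusted p = 0.0798) or 2 (0.0795) and without day 14 replicate 2 (0.0775) or 3 (0.0533). Ctla4, a competitor of CD28 for its ligands, measured 1206, 882 and 991 CPM at day 14 and 433, 375 and 512 CPM at day 4 (2.33-fold, adjusted p = 0.000629).

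Other members of the list rose by more. Pvrig, a receptor for CD112, measured 10.7, 11.6 and 10.8 CPM at day 14 and 0.660, 1.32 and 0.401 CPM at day 4, a 13.6-fold rise (adjusted p = 0.00104); its log2 fold change of 3.76 was 4.35 without day 4 replicate 2. Entpd1 encodes CD39, an enzyme that breaks down extracellular ATP, and measured 88.5, 74.3 and 46.3 CPM at day 14 and 9.10, 8.77 and 18.2 CPM at day 4 (5.79-fold, adjusted p = 0.00131). Cd244a, the SLAM family receptor 2B4, measured 48.1, 62.0 and 32.7 CPM at day 14 and 5.79, 5.71 and 8.55 CPM at day 4. Lilrb4a measured 129, 112 and 51.2 CPM at day 14 and 13.4, 10.7 and 17.7 CPM at day 4. In all 4 of these genes the lowest day 14 library exceeded the highest day 4 library. Cd200r1 rose 5.67-fold, Klrg1 rose 4.02-fold and Vsir, which encodes VISTA, rose 1.597-fold. Lilrb4a and Entpd1 are also expressed by macrophages, whose marker sums are given above, and both genes were called with that sum as a covariate. The sum overlapped between the groups, so this fit cannot decide on macrophage RNA, whose part was not tested. Without effector replicate 2 the number of list members called lower was 4.

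The fall in this list was in Btla, a receptor for HVEM, at 43.4, 38.0 and 55.5 CPM at day 14 and 125, 188 and 166 CPM at day 4 (3.51-fold lower, adjusted p = 2.33e-05), and in Cd200, a ligand of CD200R1, at 28.6, 26.0 and 28.6 CPM at day 14 and 68.9, 97.5 and 85.1 CPM at day 4 (3.02-fold lower, adjusted p = 0.00100). Ligand and receptor of the CD200 pair therefore differed in opposite directions. Cd101 measured 30.2, 33.3 and 28.8 CPM at day 14 and 28.2, 37.0 and 33.1 CPM at day 4 and was not called (adjusted p = 0.849).

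Havcr2, Tigit and Lag3 were not called in the edgeR fit of all 12 libraries although their groups did not overlap. DESeq2, on the same 12 libraries, called Havcr2 (adjusted p = 0.0100) but not Tigit or Lag3. Havcr2, which encodes TIM-3, measured 1092, 1190.2 and 792 CPM at day 14 and 106, 118 and 223 CPM at day 4 (6.88-fold, log2 2.78 ± 0.78 SE, adjusted p = 0.0551). Tigit measured 597, 537 and 548 CPM at day 14 and 300.4, 278 and 272 CPM at day 4 (1.98-fold, adjusted p = 0.0975), and Lag3, a receptor for MHC class II, measured 131, 111 and 88.1 CPM at day 14 and 50.5, 70.3 and 68.1 CPM at day 4 (1.75-fold, adjusted p = 0.191). In the tumour-only fit, where the effector and naive libraries add nothing to the spread, the adjusted p was 0.00681 for Havcr2, 2.22e-05 for Tigit and 0.00702 for Lag3. The same fit also called 2 more members of the list lower, Cd160 (log2 -0.63, adjusted p = 0.0193) and Nt5e, which encodes CD73 (log2 -1.36, 0.0332). In it 4 members were thus lower. The edgeR fit of all 12 libraries called neither Cd160 (0.385) nor Nt5e (0.0748), while DESeq2 called Nt5e lower (0.0123). The effector libraries varied widely in Havcr2, at 11.2 ± 15.4 CPM (SD, n = 3), and without effector replicate 2 its adjusted p was 0.000544 and that of Tigit 0.0137.

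Among 17 transcription factors associated with exhaustion, 5 were higher (beside 7.17% of all genes) and 1 was lower (beside 4.91%) at day 14. Their median log2 fold change was 0.14. Tox, whose product maintains the exhausted state, measured 662, 774 and 721 CPM at day 14 and 310.3, 416 and 380.4 CPM at day 4 (1.95-fold, log2 0.96 ± 0.12 SE, adjusted p = 6.02e-05). Tox2 was far less abundant, at 5.61, 14.8 and 11.2 CPM at day 14 against 2.35, 3.12 and 4.01 CPM at day 4, and its call (adjusted p = 0.0163) was lost without day 4 replicate 1 (0.0729) or 2 (0.0636) or day 14 replicate 2 (0.119). Id2, which blocks E proteins, measured 242, 236 and 174 CPM at day 14 and 52.0, 49.8 and 53.3 CPM at day 4 (4.20-fold, adjusted p = 0.000128). Id3, its counterpart in naive and stem-like cells, was 2.99-fold lower at day 14, so that the 2 Id genes differed in opposite directions. In the Ikaros family Ikzf3 rose 2.42-fold (adjusted p = 4.57e-07), whereas Ikzf2, which encodes Helios, measured 259, 305 and 329.6 CPM at day 14 and 719, 802 and 707 CPM at day 4 (2.49-fold lower, adjusted p = 0.0132; 0.0575 without day 14 replicate 1). Nr4a1, Nr4a2, Bhlhe40, Rbpj and Eomes were not called. Eomes measured 128, 177 and 136 CPM at day 14 and 162, 172 and 107 CPM at day 4, with a log2 fold change of 0.00 ± 0.31 (SE). The related T-box factor Tbx21, or T-bet, measured 56.9, 61.0 and 48.0 CPM at day 14 and 25.9, 33.4 and 39.6 CPM at day 4. It was not called (adjusted p = 0.121), but was called by DESeq2 (0.0445) and in the tumour-only fit (0.00681). That fit also called Nr4a3 (log2 -0.64, adjusted p = 0.00173) and Irf4 (log2 -0.43, 0.0263) lower, which makes 3 members lower, while neither was called in the fit of all 12 libraries (0.0942 for Nr4a3 and 0.490 for Irf4). The number lower was 2 without naive replicate 2 or 3 or without effector replicate 3.

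Cytotoxic effector genes were higher at day 14 in 8 of 20 tested members (beside 7.17% of all genes) and lower in none. Their median log2 fold change was 0.68. Of the 20, 11 had an unadjusted p under 0.05 (beside 4005 of all 16426 genes), and DESeq2 called 10 higher and 0 lower. Prf1, the pore former perforin, measured 256, 291 and 144 CPM at day 14 and 35.6, 40.9 and 53.3 CPM at day 4 (5.31-fold, adjusted p = 9.27e-05). Fasl, the death ligand, measured 159, 200.2 and 152 CPM at day 14 and 23.2, 32.4 and 42.9 CPM at day 4 (5.18-fold, adjusted p = 0.00114). Gzmk measured 211, 268 and 237 CPM at day 14 and 26.6, 39.5 and 42.0 CPM at day 4 (adjusted p = 0.00525). These 3 genes had no overlap between groups and rose by more than 5-fold each. Granzymes differed among themselves: Gzmb measured 1304, 965 and 949.8 CPM at day 14 and 275, 228 and 385 CPM at day 4 and was not called (log2 1.86 ± 0.83 SE, adjusted p = 0.215), but was called in the tumour-only fit (0.00109) and without effector replicate 2 (0.0134). Gzma, Gzmc and Gzmm had overlapping groups and log2 fold changes of 0.07, -0.07 and -0.40, and reads of the neighbouring Gzmc, Gzmd, Gzme and Gzmf genes may be shared between near-identical copies.

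The cytokine Ifng, which encodes interferon gamma, measured 123, 93.7 and 75.8 CPM at day 14 and 46.2, 44.8 and 52.4 CPM at day 4 (2.04-fold, adjusted p = 0.0135). That call was lost without day 4 replicate 1 (0.0650) or 2 (0.0675) and without day 14 replicate 1 (0.0690) or 2 (0.0517). Tnf measured 13.6, 14.5 and 19.0 CPM at day 14 and 7.41, 9.67 and 11.1 CPM at day 4 and was not called (adjusted p = 0.0622). It was called by DESeq2 (0.0348) and in the tumour-only fit (0.0357). Nkg7, a granule protein, rose 1.66-fold (815, 745 and 662 CPM at day 14 and 425, 436 and 475 CPM at day 4). The granule genes Lamp1 and Ctsw had overlapping groups and were not called. The count of members called higher was 5 without day 4 replicate 2, without day 14 replicate 1 or without day 14 replicate 2.

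Chemokines and growth factors that act on myeloid cells moved in both directions. Among 17 tested genes 5 rose (beside 7.17% of all genes), 2 fell (beside 4.91%), and the median log2 fold change was -0.02. Beside Ccl5, the inflammatory chemokine genes Ccl3 and Ccl4 were higher. Ccl3 measured 290.0, 208 and 125 CPM at day 14 and 33.5, 30.1 and 56.9 CPM at day 4 (5.17-fold, adjusted p = 0.00435). Ccl4 measured 64.9, 54.97 and 34.6 CPM at day 14 and 7.63, 8.47 and 18.5 CPM at day 4 (4.46-fold, adjusted p = 0.0150), a call lost without day 4 replicate 1 (0.0692) or 2 (0.0720) and without day 14 replicate 1 (0.0539) or 2 (0.0511). In all 3 chemokines day 14 replicate 3 was the lowest day 14 library and day 4 replicate 3 the highest day 4 library, and the groups still did not overlap. The largest fold of the list was that of Il10, a cytokine that restrains macrophages, at 16.2, 25.3 and 16.8 CPM at day 14 and 0.513, 0.661 and 1.54 CPM at day 4 (21.3-fold, log2 4.41 ± 0.48 SE, adjusted p = 4.55e-05); its log2 fold change was 5.01 without day 4 replicate 3. Flt3l, a growth factor for dendritic cells, rose 2.41-fold with little spread (32.2, 33.5 and 29.8 CPM at day 14 and 10.7, 15.2 and 13.6 CPM at day 4, adjusted p = 6.79e-06).

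Csf2 and Tnfsf11 were the members that fell. Csf2, which encodes GM-CSF, measured 1.19, 0.882 and 2.24 CPM at day 14 and 3.89, 5.71 and 7.02 CPM at day 4 (3.84-fold lower, adjusted p = 0.0266), and was not called without day 4 replicate 2 (0.0834) or 3 (0.105) or day 14 replicate 1 (0.0800) or 2 (0.111). Tnfsf11, or RANKL, measured 19.3, 10.1 and 22.8 CPM at day 14 and 41.4, 46.5 and 42.6 CPM at day 4 (2.50-fold lower, adjusted p = 0.00249). Xcl1, the chemokine that draws XCR1-bearing dendritic cells, measured 185, 122 and 248 CPM at day 14 and 324, 350.0 and 378 CPM at day 4; its groups did not overlap, but it was not called (log2 -0.92 ± 0.38 SE, adjusted p = 0.176; 0.0408 without effector replicate 1). Csf1, the growth factor of macrophages, measured 32.8, 43.4 and 16.4 CPM at day 14 and 15.2, 22.9 and 14.97 CPM at day 4, with overlapping groups, and was not called (log2 0.80 ± 0.36 SE, adjusted p = 0.185; 0.0306 without day 14 replicate 3).

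Chemokine receptors split into a set that was higher and a set that was lower at day 14, 4 and 3 of the 12 listed. Of all genes 7.17% were called higher and 4.91% lower. Cxcr6, the receptor for CXCL16 and a marker of tissue-resident cells, measured 533, 539 and 389 CPM at day 14 and 34.7, 54.5 and 91.3 CPM at day 4 (log2 3.02 ± 0.35 SE, adjusted p = 0.000634). Its groups did not overlap, and day 4 replicate 3 was the highest day 4 library. Cx3cr1, the fractalkine receptor, measured 39.0, 45.4 and 20.2 CPM at day 14 and 9.90, 7.75 and 17.3 CPM at day 4 (2.99-fold, adjusted p = 0.00354); it was not called with the melanoma marker level as a covariate (0.0768). Ccr2 was 4.24-fold higher (adjusted p = 0.0409), a call lost without any 1 of the naive libraries (0.0654 to 0.0657), without effector replicate 1 (0.0560), without day 4 replicate 1 (0.133) or 2 (0.135), or without day 14 replicate 1 (0.120), 2 (0.0516) or 3 (0.0853). Macrophages express Ccr2 and Cx3cr1 too, and their marker sum was 145 to 201 CPM at day 14 and 143 to 238 CPM at day 4. With that sum as a covariate Ccr2 and Cx3cr1 were still called, as were Ccl3, Ccl4 and Il10. The sum averaged 172 CPM at day 14 and 176 CPM at day 4, so this fit cannot decide on macrophage RNA. Its part in these rises was not tested. Ccr2 was not called with the melanoma marker level as a covariate (0.0932) or with no filter on low counts (0.0738). With Ccr6 and Ccr7, Ccr8 was lower at day 14 (1.85-fold, adjusted p = 0.0123; 0.0527 without day 4 replicate 2 and 0.0688 without replicate 3), whereas Cxcr3 and Cxcr4 were not called.

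Of the 12 tissue residency genes 3 were higher at day 14 (beside 7.17% of all genes), Cxcr6, Rgs1 and Runx3, and none was lower. An unadjusted p under 0.05 was found in 4 (beside 4005 of all 16426 genes), and DESeq2 called 3 higher and 1 lower. Rgs1, a brake on chemokine receptor signalling, measured 516, 390.0 and 440.0 CPM at day 14 and 90.4, 107 and 115 CPM at day 4 (4.31-fold, adjusted p = 2.92e-05). Runx3, a transcription factor of CD8 lineage and residency, measured 270.3, 313 and 321 CPM at day 14 and 100.5, 139 and 161 CPM at day 4 (2.25-fold, adjusted p = 8.88e-05). The integrin gene Itgae, Cd69, Zfp683 and Hopx had overlapping groups and log2 fold changes between -0.06 and 0.15. P2rx7 had the lowest log2 fold change of the list (-1.34). It was not called in the edgeR fit of all 12 libraries (adjusted p = 0.0698). DESeq2 (0.0238) and the tumour-only fit (0.0288) called it lower.

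**Figure D4:**
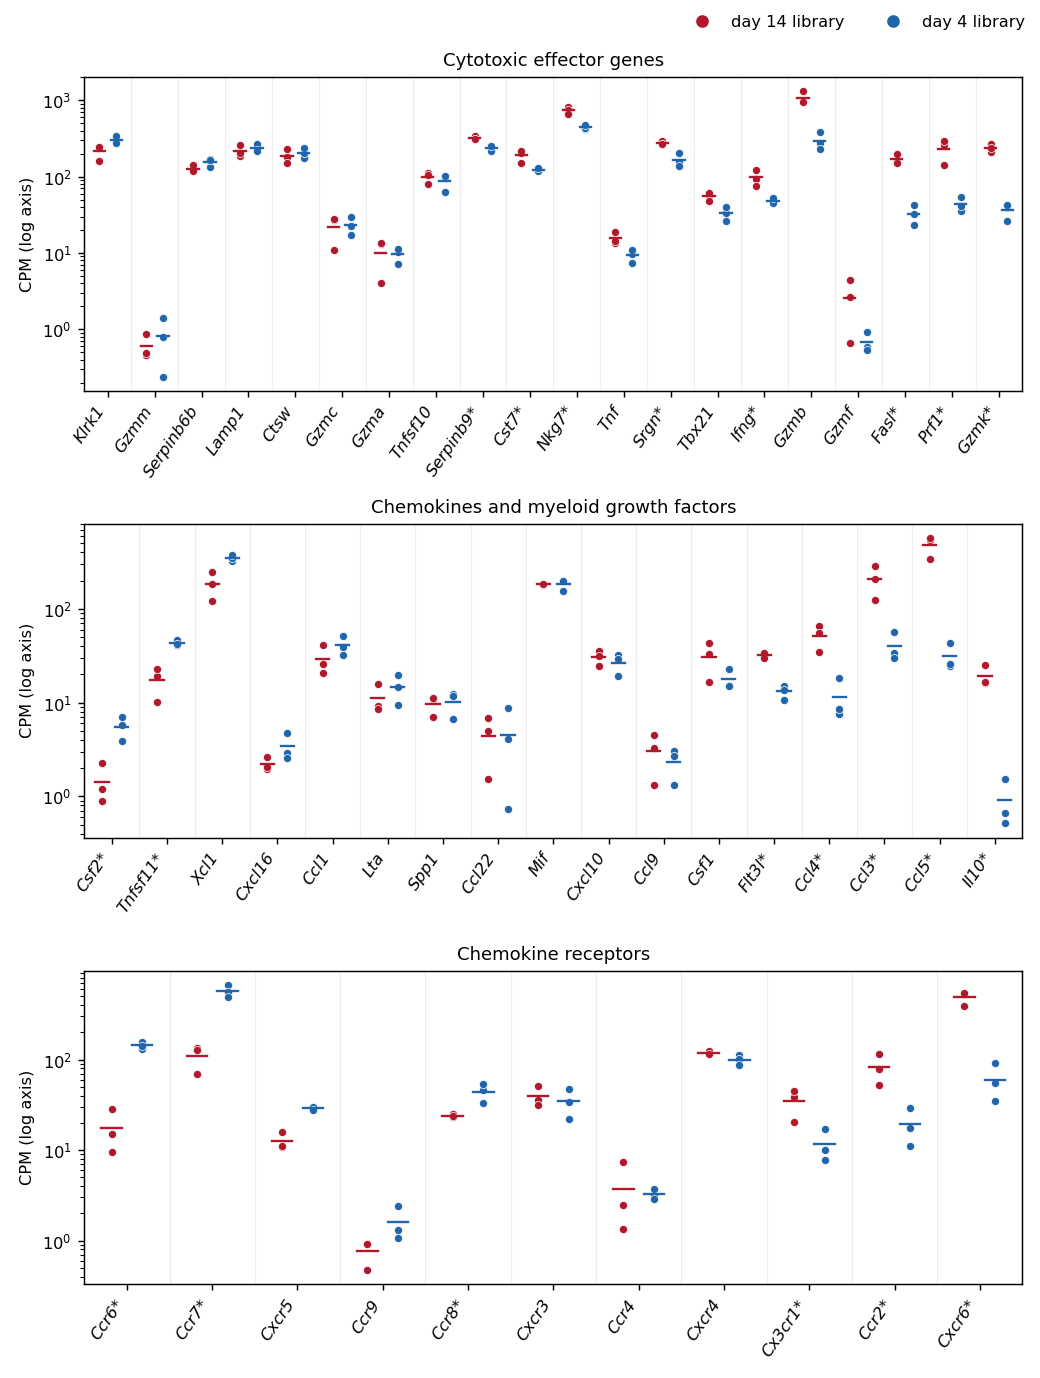
CPM on a log axis of cytotoxic effector genes (top), chemokines and myeloid growth factors (middle) and members of the chemokine receptors (bottom), ordered by fold change; red points are the 3 day 14 libraries and blue points the 3 day 4 libraries, short lines are group means, and an asterisk marks called genes. Gzmk, Prf1 and Fasl, Il10 and Ccl5, and Cxcr6 lie towards the right with no overlap of the groups, and Csf2 and Ccr6 lie furthest to the left.

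Cytokine receptors were higher at day 14 in 6 of 19 members (beside 7.17% of all genes) and lower in 2 (beside 4.91%). Their median log2 fold change was -0.12. Ifngr1, a chain of the interferon gamma receptor, measured 554, 555 and 632 CPM at day 14 and 180.4, 148 and 199 CPM at day 4 (3.30-fold, log2 1.72 ± 0.12 SE, adjusted p = 3.05e-07). Il12rb1, shared by the IL-12 and IL-23 receptors, measured 32.4, 30.9 and 26.5 CPM at day 14 and 3.81, 6.85 and 10.8 CPM at day 4 (4.17-fold, adjusted p = 0.00421). Chains that receive IL-15 were also higher: Il2rb rose 2.63-fold to 1884 ± 182 CPM at day 14, against 715 ± 178 CPM at day 4 (SD, n = 3 each; adjusted p = 0.00169), and Il15ra rose 2.46-fold (adjusted p = 1.99e-05). Tgfbr2, a TGF-beta receptor chain, rose 1.599-fold (adjusted p = 8.13e-05). Il10ra, the receptor chain for IL-10, rose 2.18-fold (adjusted p = 0.0200), a call lost without day 4 replicate 2 (0.0607) or day 14 replicate 1 (0.0703) or 2 (0.0780). The signalling chain of the IL-6 family, Il6st, was 1.66-fold lower (adjusted p = 0.000766). Il6ra was lower at a level of 1.12 to 3.03 CPM at day 14 and 5.68 to 8.29 CPM at day 4 (log2 -1.82, adjusted p = 0.0209), a call lost without day 4 replicate 1 (0.0849) or 2 (0.0517) or day 14 replicate 1 (0.0867) or 2 (0.0784).

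Costimulatory receptors differed less: 3 of 12 were higher (beside 7.17% of all genes), none was lower, and the median log2 fold change was 0.20. An unadjusted p under 0.05 was found in 8 (beside 4005 of all 16426 genes), and DESeq2 called 3 higher and 0 lower. Icos measured 723, 653 and 696 CPM at day 14 and 452, 389.9 and 484 CPM at day 4 (1.56-fold, adjusted p = 0.00133). Tnfrsf1b, a receptor for TNF, had a log2 fold change of 0.58 (adjusted p = 0.00674) and Slamf1 of 0.77 (adjusted p = 0.00365). Cd28, Tnfrsf9 (4-1BB), Tnfrsf18 (GITR) and Cd27 were not called. Without day 4 replicate 3 the number of members called higher was 5.

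Genes that restrain T cell receptor signalling were higher at day 14 in 8 of 20 members (beside 7.17% of all genes) and lower in 1 (beside 4.91%). Their median log2 fold change was 0.38. The phosphatase gene Ptpn22 measured 1132, 1068 and 1148 CPM at day 14 and 632, 551 and 634 CPM at day 4 (1.84-fold, adjusted p = 5.05e-06). The adaptors Sla2 and Lax1 rose most, by 3.24-fold (adjusted p = 1.80e-06) and 2.66-fold (adjusted p = 0.000285). Tnfaip3, which encodes A20, an inhibitor of NF-kappaB, rose 1.64-fold to 2288, 1826 and 2025 CPM at day 14, against 1297, 1265 and 1193 CPM at day 4. Ubash3b, Cd6, Cblb and Rgs16 were also higher; Cblb was not called without day 4 replicate 1 (0.0844) or 2 (0.154) or day 14 replicate 1 (0.0688) or 2 (0.141), and Cd6 not without day 14 replicate 1 (0.0513). Ptpn6, which encodes SHP-1, was the member called lower, at 175, 174 and 239.9 CPM at day 14 and 277, 299 and 273 CPM at day 4 (adjusted p = 0.0319), a call lost without any 1 of the day 4 libraries (0.0614 to 0.0970) or without day 14 replicate 1 (0.106) or 2 (0.116).

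Immediate early genes, which respond within minutes to receptor signals, did not move together. Of 21 genes 3 were higher (beside 7.17% of all genes) and 2 lower (beside 4.91%), and the median log2 fold change was 0.16. DESeq2 called 4 higher and 5 lower, and the tumour-only fit 2 higher and 3 lower. Gadd45b (log2 -0.66) was not called (adjusted p = 0.0740), but was called lower by DESeq2 (0.0153) and in the tumour-only fit (0.00201). Klf6 measured 508, 396 and 433 CPM at day 14 and 264, 244 and 287 CPM at day 4 (adjusted p = 0.00207). Egr1 measured 389, 266 and 282 CPM at day 14 and 169.8, 175 and 169 CPM at day 4 (adjusted p = 0.0236), while its relatives Egr2 and Egr3 had log2 fold changes of -0.73 and -0.81 and were not called (adjusted p = 0.0658 for Egr2 and 0.05001 for Egr3); DESeq2 called both lower, and so did fits without day 14 replicate 1 for Egr2 (0.00910) and without day 14 replicate 3 (0.0109) or any 1 of the effector libraries (0.0437 to 0.0494) for Egr3. Nfkbia, the inhibitor of NF-kappaB, was lower at day 14 (log2 -0.68, adjusted p = 0.00104), as was Myc (log2 -0.70, adjusted p = 0.0379). Egr1 was not called without any 1 of the day 4 libraries (0.0766 to 0.0892) or without day 14 replicate 1 (0.0809), and Myc not without naive replicate 3 (0.0511), day 4 replicate 2 (0.129) or 3 (0.121) or day 14 replicate 1 (0.133) or 2 (0.130). Dusp2, the phosphatase PAC1, was higher (adjusted p = 0.0313) but its groups overlapped, and it was not called in the tumour-only fit (0.115), without effector replicate 3 (0.0522), without day 4 replicate 1 (0.126) or 2 (0.121), or without day 14 replicate 1 (0.0561) or 3 (0.136).

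Type I interferon response genes were higher at day 14 in 8 of 24 members (beside 7.17% of all genes) and lower in none. Their median log2 fold change was 0.67. An unadjusted p under 0.05 was found in 11 (beside 4005 of all 16426 genes), and DESeq2 called 9 higher and 0 lower. The groups did not overlap in 12 that were higher (beside 16.5% of all genes). Zbp1, a sensor of nucleic acids in the Z form, measured 173, 119 and 143 CPM at day 14 and 45.7, 51.2 and 65.0 CPM at day 4 (2.68-fold, adjusted p = 0.0226). Ddx58, the RNA sensor RIG-I, measured 76.2, 75.9 and 71.6 CPM at day 14 and 30.0, 41.0 and 39.0 CPM at day 4 (2.03-fold, adjusted p = 4.68e-05). Isg15, a ubiquitin-like protein, measured 39.0, 32.8 and 36.9 CPM at day 14 and 14.9, 16.5 and 18.8 CPM at day 4 (2.16-fold, adjusted p = 0.0170). Ifit3 and Oas1a, which act against viral RNA, had log2 fold changes of 1.84 and 1.32. Other members did not follow: Usp18, Ifi27l2a and Oas2 had log2 fold changes of 0.02, 0.02 and 0.17 and were not called. The count depended on single libraries, with 2 members called without day 4 replicate 1, without day 4 replicate 2 or without day 14 replicate 1, and 4 without day 14 replicate 3. Zbp1 was not called in any of these 4 fits (0.0600 to 0.0946), nor was Ifit3 (0.0805 to 0.125); Isg15 and Oas1a were not called in the first 3 of them (0.0605 to 0.0880 for Isg15 and 0.0550 to 0.0755 for Oas1a). Ifit3 has a close copy, so that its reads may be shared.

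MHC class I presentation genes were higher at day 14 in 9 of 16 members (beside 7.17% of all genes) and lower in 1 (beside 4.91%). Their median log2 fold change was 0.42. The differences were below 2-fold and narrow in their spread. Tap1, a chain of the peptide transporter, measured 302, 291 and 287 CPM at day 14 and 135, 154 and 165 CPM at day 4 (1.94-fold, adjusted p = 9.19e-06). Nlrc5, the transactivator of MHC class I genes, measured 521, 487 and 496 CPM at day 14 and 268, 288 and 296 CPM at day 4 (1.77-fold, adjusted p = 0.000138). B2m, the light chain of MHC class I, measured 4469, 3983 and 3965 CPM at day 14 and 2802, 2531 and 2921 CPM at day 4 (1.505-fold, adjusted p = 0.000257). The heavy chain genes H2-K1 and H2-D1, which are alike in sequence, had log2 fold changes of 0.42 and 0.56, and the other transporter chain Tap2 of 0.69. The chaperone genes Calr, Pdia3 and Canx had negative values of -0.18, -0.07 and -0.28, of which Canx was called (adjusted p = 0.0439). That call was lost in the tumour-only fit (0.0652), without naive replicate 1 (0.0501) or 2 (0.0574), without day 4 replicate 1 (0.155) or 3 (0.0895) and without day 14 replicate 1 (0.148) or 2 (0.0810).

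Promoters of these genes were read from RefSeq (GRCm38.p6), from 250 bases before to 50 after each gene's start. The core of the interferon-stimulated response element was searched as the letters GAAA, any 2 bases and GAAA again, on either strand with overlapping matches allowed. It was in the windows of 10 of the 17 interferon genes with a RefSeq promoter (58.8%), beside 3.99% of all 27025 promoters. Of these 10 genes 4 were called higher, Isg15, Ifit3, Oas1a and Ddx58. Among MHC class I genes 3 of 14 windows held it (B2m, Psme1 and Erap1), of which B2m was called higher. The windows of 3 interferon genes that were called and of B2m are shown to give the element's number and place, with each match and run of overlapping matches in capitals. Isg15 (chr4:156200769-156201068, minus strand) has 3 overlapping matches that start 78, 72 and 66 bases before the gene's start, Ifit3 (chr19:34583279-34583578, plus strand) has 2 in the reverse orientation, Oas1a (chr5:120907476-120907775, minus strand) has 2 that overlap and start 20 and 14 bases before it, and B2m (chr2:122147437-122147736, plus strand) has 1 that starts 139 bases before it.
Isg15: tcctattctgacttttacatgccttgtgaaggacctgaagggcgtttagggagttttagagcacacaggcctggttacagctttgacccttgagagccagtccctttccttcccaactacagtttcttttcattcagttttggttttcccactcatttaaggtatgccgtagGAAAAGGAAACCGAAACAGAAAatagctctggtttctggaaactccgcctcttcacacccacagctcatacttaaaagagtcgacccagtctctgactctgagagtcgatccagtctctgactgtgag
Ifit3: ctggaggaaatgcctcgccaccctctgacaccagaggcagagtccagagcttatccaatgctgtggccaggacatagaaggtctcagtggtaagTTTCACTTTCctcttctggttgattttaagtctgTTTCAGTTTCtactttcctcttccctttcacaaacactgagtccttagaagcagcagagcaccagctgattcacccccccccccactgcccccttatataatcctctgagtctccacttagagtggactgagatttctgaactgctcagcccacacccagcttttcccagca
Oas1a: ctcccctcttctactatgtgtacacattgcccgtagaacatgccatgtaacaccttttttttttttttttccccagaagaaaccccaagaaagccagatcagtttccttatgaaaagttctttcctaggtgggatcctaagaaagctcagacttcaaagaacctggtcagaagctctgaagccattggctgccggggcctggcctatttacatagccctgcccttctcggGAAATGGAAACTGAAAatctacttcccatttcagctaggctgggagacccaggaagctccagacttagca
B2m: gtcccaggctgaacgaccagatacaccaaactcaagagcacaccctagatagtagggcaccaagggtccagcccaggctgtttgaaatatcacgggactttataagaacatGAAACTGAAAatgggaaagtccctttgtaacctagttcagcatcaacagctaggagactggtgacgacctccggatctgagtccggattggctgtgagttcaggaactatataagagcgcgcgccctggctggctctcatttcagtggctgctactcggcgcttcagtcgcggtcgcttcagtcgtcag
A match describes these letters only and was not tested as a site. For the naive and stem-like genes the TCF/LEF letters CTTTGAA were in 1 of 16 windows (Foxp1), beside 5.93% of all promoters.

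Genes of cell division were abundant at both times and were not called. Mki67, the proliferation antigen Ki-67, measured 1912, 2329.8 and 2611 CPM at day 14 and 2093, 2224 and 2178 CPM at day 4, with overlapping groups (log2 0.08 ± 0.90 SE, adjusted p = 0.981). None of 25 mitosis genes was called, and their median log2 fold change was 0.04. Of these genes 1 had an unadjusted p under 0.05 (beside 4005 of all 16426 genes), and DESeq2 called 1 higher and 0 lower. None of 23 tested DNA replication genes was called (2 at an unadjusted p under 0.05; DESeq2 called 0) and their median was -0.09. The fitted SE takes in the effector libraries, in which Mki67 varied widely, at 228 ± 305 CPM (SD, n = 3). In the tumour-only fit 2 mitosis genes were called higher, Cenpa (0.0393) and Prc1 (0.00409), and 1 replication gene was lower, Gins1 (0.0253).

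Metabolic genes changed singly. Of 19 glycolysis genes 2 were higher (beside 7.17% of all genes) and 2 lower (beside 4.91%), with a median log2 fold change of -0.02. Pfkp, the platelet-type phosphofructokinase, measured 852, 825 and 827 CPM at day 14 and 515, 515 and 498 CPM at day 4 (1.64-fold, adjusted p = 3.04e-05), and was the glycolysis gene that was called whichever library was left out. The glucose transporter gene Slc2a3 was higher (log2 0.41). Its call was lost without any 1 of the naive (0.0531 to 0.0548) or day 4 libraries (0.0555 to 0.157) and without day 14 replicate 1 (0.140) or 2 (0.125). Pgam1, which encodes phosphoglycerate mutase, and Slc16a1, the lactate transporter MCT1, were both lower (log2 -0.41). Pgam1 was not called without day 4 replicate 1 (0.188) or 2 (0.0723) or any 1 of the day 14 libraries (0.0696 to 0.111). Slc16a1 was not called without day 4 replicate 1 (0.134) or 2 (0.0639) or day 14 replicate 1 (0.0870) or 2 (0.0790). Of 18 hypoxia response genes 2 were higher (beside 7.17% of all genes) and 2 lower (beside 4.91%). Mxi1, an antagonist of MYC, measured 44.7, 53.4 and 41.2 CPM at day 14 and 28.1, 17.1 and 14.4 CPM at day 4 (2.35-fold, adjusted p = 0.00204). Ndrg1 measured 30.2, 15.5 and 19.6 CPM at day 14 and 76.1, 45.8 and 46.7 CPM at day 4 (2.59-fold lower, adjusted p = 0.0165), and was not called without day 4 replicate 1 (0.0516) or day 14 replicate 2 (0.0594) or 3 (0.0615). The other calls of the list were Egln3, a prolyl hydroxylase of HIF, which was higher (log2 0.73, adjusted p = 0.0402), and Pdk1, an inhibitor of pyruvate dehydrogenase, which was lower (log2 -0.57, adjusted p = 0.0104). Egln3 was not called without naive replicate 3 (0.0511), effector replicate 1 (0.0536), any 1 of the day 4 libraries (0.0522 to 0.137) or day 14 replicate 1 (0.244), and Pdk1 not without day 4 replicate 1 (0.0518). Oxidative phosphorylation genes had 1 call among 25 (Atp5a1, log2 -0.37) and cholesterol synthesis genes 1 among 23 (Idi1, log2 -0.66). Both were lower (beside 4.91% of all genes). Atp5a1 was not called without day 4 replicate 1 (0.0818) or 2 (0.0570) or day 14 replicate 1 (0.0533), and Idi1 not without day 4 replicate 1 (0.103) or 3 (0.0740) or day 14 replicate 1 (0.111) or 3 (0.0618). The unfolded protein and integrated stress response list had 2 of 17 members higher (beside 7.17% of all genes), Hsp90b1 and Edem1 (log2 0.41 and 0.29). Neither was called without any 1 of the tumour libraries (0.0577 to 0.204 for Hsp90b1 and 0.0728 to 0.138 for Edem1).

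Most genes that build the ribosome had lower values at day 14 by small amounts, and a minority was called. Of 24 ribosome biogenesis genes 4 were called lower (beside 4.91% of all genes) and none higher, and DESeq2 called 6 lower. In this list 22 had a negative log2 fold change (beside 8298 of all 16426 genes) and 14 an unadjusted p under 0.05 (beside 4005). The groups did not overlap in 16 that were lower (beside 14.1% of all genes), and the median was -0.28. Among 24 cytosolic ribosomal protein genes 4 were called lower (beside 4.91% of all genes) and none higher, and 22 were negative. An unadjusted p under 0.05 was found in 11, 10 were lower without overlap (beside 14.1% of all genes), and the median was -0.20. Npm1, the nucleolar chaperone nucleophosmin, measured 2119.8, 2379 and 2472 CPM at day 14 and 4079.9, 3303 and 3356 CPM at day 4 (1.54-fold lower, adjusted p = 0.000712). Its groups were well apart, and it was called whichever library was left out. The ribosomal protein genes called were Rps2, Rpl4, Rpl5 and Rpl8, with log2 fold changes of -0.34, -0.28, -0.32 and -0.27; ribosomal proteins have many processed copies in the genome that can share reads. The number of ribosomal protein genes called lower was 0 without day 4 replicate 1 or without day 14 replicate 1, 1 without day 14 replicate 2, 2 without naive replicate 2, day 4 replicate 2 or 3, and 7 without day 14 replicate 3. It was 1 in the tumour-only fit, 0 with the macrophage marker level as a covariate, 9 with the melanoma marker level as a covariate or with no filter, and 7 with scaling by total counts or with DESeq2 as the test. That of ribosome biogenesis genes was 1 without day 4 replicate 1 or day 14 replicate 1 and 2 without day 14 replicate 2.

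The levels of these genes at day 14 and day 4 can be set beside those of effector and naive libraries, which were made from other sources and were not tested here. Pdcd1 averaged 697 ± 55.6 CPM at day 14, 378 ± 28.5 CPM at day 4, 2.67 ± 1.19 CPM in effector cells and 0.659 ± 0.480 CPM in naive cells (SD, n = 3 each). Tcf7 averaged 62.2 ± 36.5 CPM at day 14, 252 ± 8.58 CPM at day 4, 1779 ± 74.1 CPM in effector cells and 1183 ± 65.1 CPM in naive cells. For Pdcd1 both tumour groups lay above, and for Tcf7 both lay below, the effector and naive libraries. Prdm1 averaged 207 ± 9.82 CPM at day 14, 19.9 ± 15.9 CPM at day 4, 8.23 ± 3.04 CPM in effector cells and 1.65 ± 1.45 CPM in naive cells. Gzmk averaged 238 ± 28.4 CPM at day 14, 36.04 ± 8.25 CPM at day 4, 2.92 ± 3.30 CPM in effector cells and 0.0246 ± 0.0427 CPM in naive cells. Ccl5 and Cxcr6 did not follow that order. Ccl5 averaged 482 ± 124 CPM at day 14, 31.3 ± 10.2 CPM at day 4 and 120.5 ± 81.2 CPM in effector cells. Cxcr6 averaged 487 ± 84.7 CPM at day 14, 60.2 ± 28.7 CPM at day 4 and 152 ± 18.2 CPM in effector cells. The day 4 means of both were below the effector means. Ccr7 averaged 111 ± 35.6 CPM at day 14, 569 ± 91.6 CPM at day 4, 208 ± 29.2 CPM in effector cells and 189 ± 23.8 CPM in naive cells, and its mean was thus highest at day 4.

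**Figure D5:**
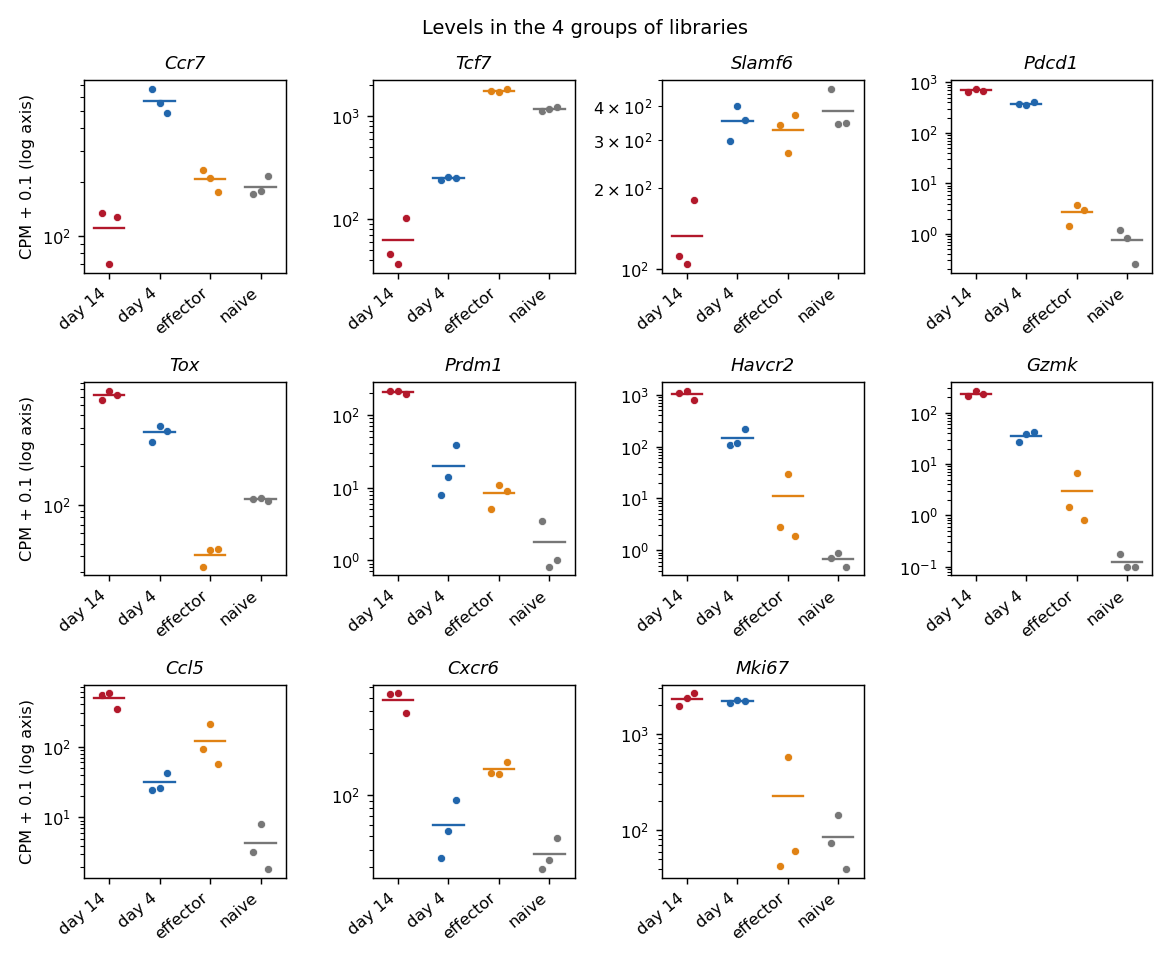
CPM plus 0.1 on a log axis (y axes differ) of 11 genes in the 3 libraries of each group, with day 14 in red, day 4 in blue, effector in orange and naive in grey; points are libraries and lines are group means. Tcf7 and Slamf6 are lowest at day 14, Pdcd1, Tox, Prdm1, Havcr2, Gzmk, Ccl5 and Cxcr6 are highest there, Ccr7 is highest at day 4, and Mki67 is alike at day 14 and day 4.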

How the data were processed

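RNA of sorted cells was taken on oligo(dT) beads and amplified as cDNA before tagmentation, per the labels' protocols, which also state that shallow sequencing removed libraries with few coding reads. The authors deposited raw read counts of every gene. The submitters' processing notes name fastp 0.19.6, STAR 2.6.1b and the build GRCm38; counting options: not given in the sources used here. The deposited tables count reads without regard to strand and on either strand. Between 49.8% and 49.9% of stranded gene counts fell on the sense strand, so the unstranded counts were used, and a gene cannot be told apart from an overlapping or antisense gene. The summary lines that name no gene were left out; in the tumour libraries reads outside genes made up 20.7% to 25.1%, unmapped reads 5.12% to 5.52%, multimapping reads 6.06% to 7.29% and ambiguous reads 3.22% to 3.57% of all reads. Of 55401 gene identifiers 55141 matched GENCODE M21, which gave symbols and positions.

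All 12 libraries entered 1 edgeR 4.0.16 fit (R 4.3.3, limma 3.58.1) of 4 groups with TMM factors, filterByExpr and robust quasi-likelihood dispersions (8 residual degrees of freedom), and the contrast was day 14 minus day 4. CPM values are scaled by TMM factors. Marker sums were compared by an exact two-sided permutation test over the 20 splits of 6 libraries. The steps were tested on simulated data. There were 21 alternatives, among them DESeq2 1.42.0 and leaving out each library.

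The named genes are called protein-coding genes with non-overlapping groups and an average log2 CPM from 4 upward (the 10 highest and 10 lowest fold changes), up to 3 called members of each of 22 function lists, the most abundant member of each of 11 marker lists, and a panel of 25 genes; other list members were chosen after their values were seen. Some members count in the lists but are not reported here by name. Members, lists and rules were chosen with earlier results of these data known. Results are described by counts, not by set tests.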

Additional observations from a re-analysis of the deposited data

How the results depend on the processing

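Under the 21 alternatives the number of calls ran from 1283 to 2452, and 0 shared calls changed sign in any of them. Leaving out 1 library gave 1283 to 2206 calls, 750 to 1308 of them higher and 533 to 898 lower, the lowest without day 14 replicate 2 and the highest without effector replicate 2. DESeq2 called 2449 genes, of which 1937 were shared; the fit of the 6 tumour libraries alone called 2132, the same fit with the melanoma marker level as a covariate 2452 and with the macrophage marker level 1874. Scaling by total counts gave 1953 calls and no filter on low counts 2409. The fit with a replicate block called 2044 genes, 1643 of them shared. Deviations from the group means correlated at -0.0008, -0.0246 and 0.0807 for equal replicate numbers and at -0.0734 to 0.0801 for unequal ones. Not every library correlated best with its own number. With 3 libraries a group, these values cannot decide whether the numbers pair the samples. In the block fit Cxcr6 (adjusted p = 0.0558), Entpd1 (0.0567), Ccl4 (0.0962), Prdm1 (0.107), Lilr4b (0.129), Ccl3 (0.154) and Cx3cr1 (0.196) were among the genes not called. The number of chemokine receptors called higher in it was 0. Of 92 named genes tested 76 were called, 41 of these in every alternative, and 0 reversed. Of 924 counts of list members 177 were over 1.5 times from the value reported, and for 2 lists the balance of higher and lower calls turned. The cause was not tested. Precision is limited by 3 libraries a group.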

Other observations

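Beyond the lists, 6 genes known from B cells were lower at day 14. The group was chosen after its values were seen, so this count says nothing of B cell genes at large. Its members were Spib, Pou2af1, Fcrl1, Cd72, Tnfrsf13c and the activation marker Cd83. Spib, a transcription factor of B cells and plasmacytoid dendritic cells, measured 1.45, 1.06 and 1.33 CPM at day 14 and 10.8, 19.8 and 10.4 CPM at day 4 (log2 -3.41 ± 0.45 SE, adjusted p = 0.000104). Pou2af1, a coactivator of octamer factors, measured 1.32, 1.88 and 2.97 CPM at day 14 and 17.0, 15.7 and 10.0 CPM at day 4 (log2 -2.78 ± 0.35 SE, adjusted p = 0.000133). Fcrl1, an Fc receptor-like protein, measured 2.57, 2.59 and 4.72 CPM at day 14 and 14.1, 25.8 and 21.6 CPM at day 4. The 8 B cell markers, which include Ms4a1 and Cd79a, summed to 6.14, 1.70 and 3.15 CPM at day 14 and 5.50, 7.51 and 3.88 CPM at day 4, with 6 of the 8 under 1 CPM on average. Cd79b, the most abundant of them at day 4, measured 1.52, 0.353 and 1.51 CPM at day 14 and 3.15, 4.45 and 2.07 CPM at day 4 and was itself called lower (log2 -1.52, adjusted p = 0.0280; 0.0770 in the fit of the 6 tumour libraries alone). Of the 5 B cell markers tested 2 were lower without overlap of the groups (beside 14.1% of all genes). The log2 fold change was negative in 3 of the 5 and positive in 2, with a median of -0.00. Spib, Pou2af1 and Fcrl1 each exceeded the marker sum at day 4 in every library. The part of B cell RNA in these falls was not tested.

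Other families, also chosen after their values were seen, were higher at day 14. Of the Gimap GTPases of lymphocytes 6 of 8 rose and none fell. Of the guanylate-binding proteins, which interferon gamma induces, 5 of 10 tested rose and none fell. Beside these counts, 7.17% of all genes were called higher. Il21, a cytokine that sustains T and B cells, measured 5.48, 7.11 and 4.18 CPM at day 14 and 0.147, 0.0601 and 0.267 CPM at day 4 (adjusted p = 0.000200). The long noncoding RNA AW112010 measured 579.5, 534 and 528 CPM at day 14 and 194, 187 and 251 CPM at day 4 (adjusted p = 1.80e-06). Gas5, a host gene of small nucleolar RNAs, was lower (log2 -0.46, adjusted p = 0.00380). Of 67 T cell receptor J segments tested 11 were higher (beside 7.17% of all genes) and none lower. A positive log2 fold change was found in 64 (beside 8111 of all 16426 genes). The OT-I transgene encodes 1 receptor. Whether the cells also carry other receptors was not tested, nor was the source of these reads.

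MHC class II transcripts were not called in the edgeR fit of all 12 libraries: H2-Eb1 measured 13.0, 21.6 and 18.04 CPM at day 14 and 5.13, 9.31 and 5.21 CPM at day 4 (adjusted p = 0.107). DESeq2 called 2 members of the dendritic cell and MHC class II list higher and 1 lower. In the fit of the 6 tumour libraries alone H2-Eb1 (0.00438), H2-Aa (0.00181) and H2-Ab1 (0.00861) were higher at day 14. Other members of that list did not move with them. Cd74, the invariant chain and the most abundant member, measured 70.1, 90.6 and 88.9 CPM at day 14 and 78.9, 91.1 and 82.0 CPM at day 4 (adjusted p = 0.994). Zbtb46, a factor of dendritic cells, was called lower in the fit of all 12 libraries (log2 -0.84, adjusted p = 0.0411) and not in the fit of the 6 tumour libraries alone (0.0634). The summed level of the 11 dendritic cell and MHC class II markers was 181, 226 and 197 CPM at day 14 and 163, 187 and 141 CPM at day 4 (exact permutation p = 0.2).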
